A study of Mus musculus with 18 samples.

Results

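Astrocyte genes were measured in mouse striatum on Affymetrix arrays as the probe sets of 9 genes: Aldoc, Gja1, Slc1a2, Slc1a3, Gfap, Aqp4, Glul, S100b and Fgfr3. Every probe set annotated to 1 of these symbols and to no other gene was taken, which gave 22 of the 22626 probe sets that are not array controls. Of the 22, 20 exceeded a log2 value of 4 on 3 or more arrays, as did 12674 probe sets in all, which stand for 7583 genes. One probe set of Gja1 (1438973_x_at) and one of Fgfr3 (1425796_a_at) stayed below that level and were not tested. The rule that took these probe sets uses annotation alone, with no measured value, while the 9 genes were chosen with earlier results of these data known.

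The series compared mice with a mutation of the Camk4 gene and their control littermates, injected with cocaine or saline. Camk4 encodes CaMKIV, a kinase activated by calcium and calmodulin and known to act on the transcription factor CREB, and the series asks how its loss changes gene expression after cocaine, a psychostimulant that blocks the dopamine transporter. The groups were mutant mice given cocaine (6 animals), control mice given cocaine (6), mutant mice given saline (3) and control mice given saline (3). Cocaine was injected at 25 mg/kg, tissue was taken 1 hour after the injection, and all animals were 10 to 20 weeks old, singly caged and handled for 5 days. The dissected tissue was striatum with the nucleus accumbens, and each animal had 1 array. The sources used here give neither the mutant allele nor its driver nor the animals' sex. By the titles, 12 animals (3 in each group) carry Arabic numbers and 6 (cocaine alone, 3 of each genotype) carry Roman numbers, so replicates 4 to 6 of each cocaine group are the Roman-numbered ones.

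Astrocytes clear glutamate from the synapse through the transporters encoded by Slc1a3 (GLAST) and Slc1a2 (GLT-1), and glutamine synthetase, encoded by Glul, turns it into glutamine that returns to neurons. They are joined by gap junctions of connexin 43, the product of Gja1, take up and release water through the channel Aqp4, and contain the intermediate filament protein Gfap, which is known to increase in reactive astrocytes. Aldoc (the glycolytic enzyme aldolase C), S100b (a calcium-binding protein) and the receptor gene Fgfr3 are further genes enriched in this cell type. In whole tissue, fewer astrocytes and less RNA per astrocyte cannot be told apart.

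Several facts of the whole series bear on these genes. The groups rest on the sample titles, because title and description line agreed on genotype and treatment in 0 of 18 samples. In the Camk4 probe set 1426167_a_at, mutant animals lay between 6.85 and 7.69 after cocaine and between 7.14 and 7.47 after saline, and control animals between 7.52 and 7.76 after cocaine and between 7.59 and 7.72 after saline. The saline groups did not overlap, while mutant cocaine replicate 6, at 7.69, lay inside the control cocaine range, and in Camk4 1421941_at mutant cocaine replicates 4 and 6 (6.10 and 6.06) lay above control cocaine replicates 1 to 3 (5.46 to 5.48). The latter sets Roman-numbered mutants against Arabic-numbered controls. In 1421941_at, cocaine arrays averaged 5.28 (Arabic, n = 6) and 6.29 (Roman, n = 5, without mutant cocaine replicate 5). Within each series, the cocaine groups did not overlap in 1426167_a_at (mutant 7.23 to 7.29, control 7.52 to 7.62 in Arabic, 6.85 to 7.69 and 7.72 to 7.76 in Roman). In 1421941_at they overlapped in the Roman series, where mutant replicate 4 lay above control replicate 6 (6.09). For 1426167_a_at, the mutant minus control difference averaged over treatments was -0.37 ± 0.09 (SE; limma, unadjusted p = 0.000849, adjusted p = 0.61). Fos, a gene switched on by neuronal activity, was higher after cocaine by 4.55 ± 0.48 (limma, adjusted p = 0.00055). A measure of RNA length, the log2 difference between the 3' and 5' probe sets of actin (larger where RNA is shorter), was 3.59 in mutant cocaine replicate 5, 1.70 ± 0.13 in the remaining arrays with Roman numbers (SD, n = 5), 2.38 ± 0.17 in Arabic-numbered cocaine arrays (n = 6) and 2.20 ± 0.19 in saline arrays (n = 6). Mutant cocaine replicate 5 therefore stood apart from the other 17 arrays, and results that rest on it are given with and without it. Markers of medium spiny neurons, the main neurons of striatum, had mean log2 levels of 11.8 to 12.2 in all 18 arrays, while Tbr1, the measured cortical marker, had a group mean of at most 3.90.

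Promoter sequence is shown for the 4 genes to which the results return most often: Gfap, whose saline groups did not overlap in both probe sets, Glul, whose saline groups did not overlap in 1 of its 2 probe sets, and Gja1 and Slc1a3, the members whose windows held a CRE core match, the short form of the DNA element that CREB binds. RefSeq (GRCm38.p6) start sites were used for 8 of the 9 genes, in 10 windows, and no window was searched for Aqp4. Each line gives the 250 bases before the annotated start, 5' to 3' on the gene's strand, in lower case with motif matches in capitals. Gfap is read from chr11:102897201-102897450 (minus strand), Glul from chr1:153899679-153899928 (plus), Gja1 from chr10:56377050-56377299 (plus) and Slc1a3 from chr15:8710808-8711057 (minus).
Gfap: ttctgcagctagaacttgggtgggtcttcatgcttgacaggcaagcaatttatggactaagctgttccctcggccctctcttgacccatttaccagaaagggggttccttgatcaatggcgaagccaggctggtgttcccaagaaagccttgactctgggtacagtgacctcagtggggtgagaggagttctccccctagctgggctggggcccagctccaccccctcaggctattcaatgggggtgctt
Glul: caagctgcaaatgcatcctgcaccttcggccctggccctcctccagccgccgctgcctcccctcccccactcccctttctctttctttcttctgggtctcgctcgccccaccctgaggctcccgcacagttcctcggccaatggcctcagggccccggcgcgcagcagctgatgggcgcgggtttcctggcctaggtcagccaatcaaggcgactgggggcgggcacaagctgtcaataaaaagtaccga
Gja1: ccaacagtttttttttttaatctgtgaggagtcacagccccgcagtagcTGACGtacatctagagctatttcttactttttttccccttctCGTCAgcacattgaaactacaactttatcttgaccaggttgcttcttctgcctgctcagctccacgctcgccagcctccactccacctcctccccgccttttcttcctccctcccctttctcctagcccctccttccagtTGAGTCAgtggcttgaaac
Slc1a3: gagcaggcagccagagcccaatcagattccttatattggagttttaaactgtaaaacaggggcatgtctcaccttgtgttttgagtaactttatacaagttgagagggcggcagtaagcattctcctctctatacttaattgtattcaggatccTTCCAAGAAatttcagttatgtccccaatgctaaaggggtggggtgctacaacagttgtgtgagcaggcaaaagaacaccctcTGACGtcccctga

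The motifs were searched on both strands as CRE (TGACGTCA), CRE core (TGACG), AP-1 (TGANTCA), NFI core (TTGGCA) and STAT (TTCNNNGAA), where N is any base. The Gja1 window held matches to the CRE core that start 201 and 159 bases before the start site and an AP-1 match at 19 bases. The Slc1a3 window held 1 CRE core match, 13 bases before the start site, and 1 STAT match. The CRE core is present in 17.8%, an AP-1 match in 6.75% and a STAT match in 7.02% of the 32851 RefSeq windows of the same length. The full CRE, found in 1.55% of all windows, was in none of the 10 member windows. None of the motifs searched is in the printed Gfap and Glul windows, nor in those of Slc1a2 and Fgfr3. S100b held 1 NFI core match (12.3% of all windows), and the Aldoc windows held 1 NFI core match and 2 STAT matches. These are matches of letters and say nothing about binding.

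No astrocyte probe set passed an adjusted p of 0.05 in any of the 7 comparisons made with limma, and most differences between group means were no larger than the spread within a group. In 11 of the 20 probe sets, the whole range of the 4 group means was smaller than the largest group SD. Mutant saline mice had the lowest of the 4 group means in 12 of the 20 probe sets and the highest in 0. Control saline mice had the highest in 9 and control cocaine mice in 7. For Slc1a3 (1426340_at), the log2 level averaged 11.30 ± 0.24 in mutant cocaine, 11.29 ± 0.09 in control cocaine, 11.34 ± 0.14 in mutant saline and 11.36 ± 0.20 in control saline mice (SD, n = 6, 6, 3 and 3). For Slc1a2, whose single probe set was 1451627_a_at, these means were 7.30 ± 0.20 in mutant cocaine, 7.36 ± 0.30 in control cocaine, 7.38 ± 0.13 in mutant saline and 7.46 ± 0.10 in control saline mice. The means of neither glutamate transporter differed by more than these spreads.

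The brightest probe sets of Aldoc, Gja1 and Glul were also nearly level. Aldoc (1451461_a_at) lay between 13.36 and 13.58 in all 18 arrays. Gja1 (1437992_x_at) averaged 12.29 ± 0.09 in mutant cocaine, 12.34 ± 0.17 in control cocaine, 12.23 ± 0.04 in mutant saline and 12.31 ± 0.08 in control saline mice. Glul (1426236_a_at) averaged 13.14 ± 0.04 in mutant cocaine, 13.17 ± 0.06 in control cocaine, 13.11 ± 0.10 in mutant saline and 13.22 ± 0.02 in control saline mice. Its lowest group mean was that of mutant saline and its highest that of control saline mice, and the 2 groups overlapped. Gfap was the member with the widest spread of animals among the brightest probe sets: 1426508_at ran from 6.68 to 7.64 in mutant cocaine mice, from 6.56 to 7.81 in control cocaine mice, from 6.62 to 6.93 in mutant saline mice and from 7.14 to 7.68 in control saline mice.

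**Figure D1:**
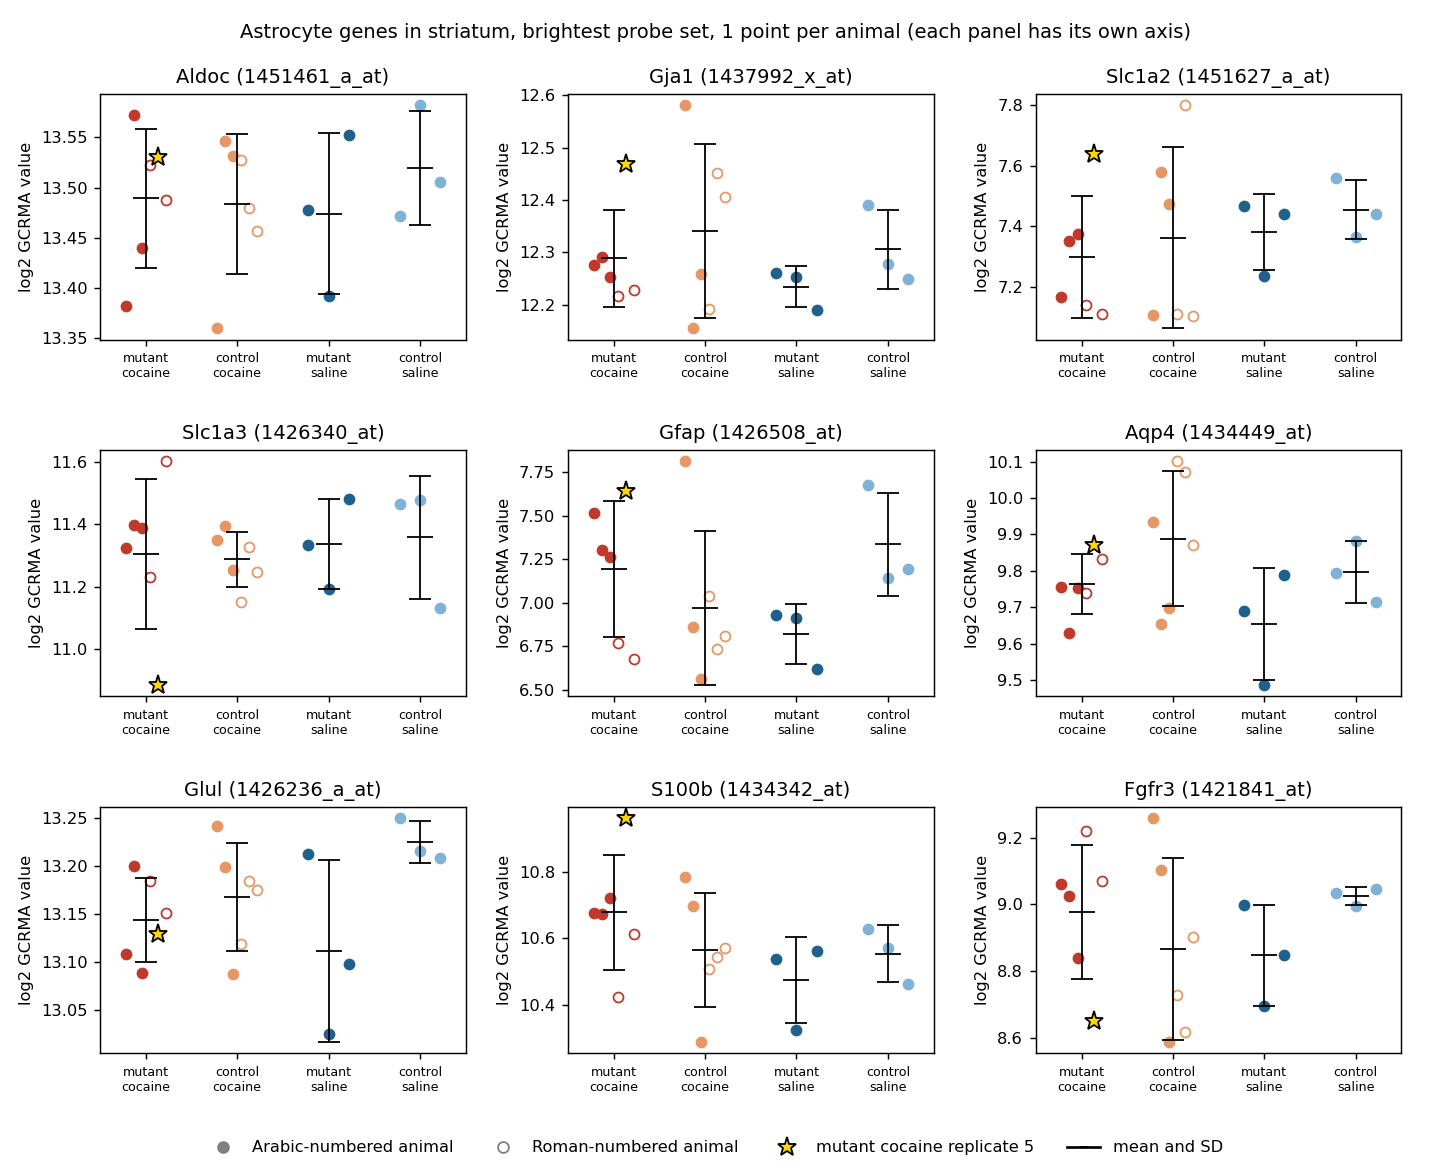
Log2 GCRMA level of the brightest probe set of each of the 9 astrocyte genes (vertical axis, own scale per panel), with 1 point per animal, bars for mean and SD, and mutant cocaine, control cocaine, mutant saline and control saline from left to right. Open points are Roman-numbered animals and the star is mutant cocaine replicate 5; mutant and control groups of like treatment overlap in every panel but Gfap, where the 3 mutant saline animals (6.62 to 6.93) sit below the 3 control saline animals (7.14 to 7.68).

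The panels of levels show how narrow the scale is for most of these genes. Group means of Aldoc (1451461_a_at) span 0.0458 on the log2 scale, against an SD of up to 0.0802 within a group. Fgfr3 (1421841_at), a receptor for fibroblast growth factors, averaged 8.98 ± 0.20 in mutant cocaine, 8.87 ± 0.27 in control cocaine, 8.85 ± 0.15 in mutant saline and 9.03 ± 0.03 in control saline mice. Aqp4 (1434449_at) averaged 9.76 ± 0.08 in mutant cocaine, 9.89 ± 0.19 in control cocaine, 9.65 ± 0.15 in mutant saline and 9.80 ± 0.08 in control saline mice. S100b (1434342_at) averaged 10.68 ± 0.17 in mutant cocaine, 10.56 ± 0.17 in control cocaine, 10.47 ± 0.13 in mutant saline and 10.55 ± 0.08 in control saline mice. The probe sets that were not tested lay at 3.81 to 4.09 (Gja1 1438973_x_at) and 2.19 to 3.43 (Fgfr3 1425796_a_at).

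The basal genotype difference sets mutant against control mice after saline. Gfap was the member with the largest difference. Its probe set 1426509_s_at had 6.08, 6.29 and 5.60 in mutant saline animals, against 7.18, 6.71 and 6.78 in control saline animals. Its other probe set, 1426508_at, had 6.93, 6.91 and 6.62 in mutant saline animals, against 7.68, 7.14 and 7.19 in control saline animals. In both, every mutant animal was below every control animal. The differences were -0.90 ± 0.45 and -0.52 ± 0.28 (SE; limma, unadjusted p = 0.063 and 0.080, adjusted p = 0.9999 for both), with 95% intervals of -1.86 to 0.06 and -1.10 to 0.07. Without mutant cocaine replicate 5, which enters through the shared estimate of spread, the errors were 0.29 and 0.24 (limma, unadjusted p = 0.0074 and 0.048, adjusted p = 0.89 for both).

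Glul showed the next pattern of this kind. Its probe set 1426235_a_at had 9.77, 9.74 and 9.67 in mutant saline animals, against 10.06, 9.94 and 10.02 in control saline animals, again without overlap. In its brightest probe set, 1426236_a_at, the values were 13.21, 13.02 and 13.10 in mutant saline animals, against 13.25, 13.22 and 13.21 in control saline animals, which overlap at the top of the mutant range. The differences were -0.27 ± 0.13 and -0.11 ± 0.05 (SE; limma, unadjusted p = 0.055 and 0.035, adjusted p = 0.9999 for both). Without mutant cocaine replicate 5 the unadjusted p was 0.035 and 0.034 (limma, adjusted p = 0.89 for both). S100b went the other way in 1 of its probe sets: 1419383_at had 9.38, 9.45 and 9.38 in mutant saline animals, against 9.27, 9.34 and 9.24 in control saline animals, a difference of 0.12 ± 0.08 (SE).

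Counted over the members, 0 of 20 probe sets passed the adjusted threshold in this comparison, as did 0% of the 12674 tested. With limma's unadjusted p under 0.05 there was 1 of 20 (Glul 1426236_a_at), against 2.76% of all probe sets. Without mutant cocaine replicate 5, both Gfap and both Glul probe sets were under 0.05. The share of all probe sets was not counted for that fit. The 2.76% belongs to the fit on all arrays, so this count has no share to be set against. The saline groups did not overlap in 4 of 20 (both Gfap probe sets and Glul 1426235_a_at lower in mutants, S100b 1419383_at higher), against 11.7% of all probe sets (4.56% lower and 7.19% higher in mutants). The difference was below 0 in 18 of 20 probe sets, against 45% of all probe sets, and in the brightest probe set of 9 of 9 genes. Its median was -0.10 over the member probe sets and 0.01 over all probe sets, and -0.08 over the 9 genes and 0.03 over all genes. Probe sets of a gene share a transcript and all of them share 6 animals, so these counts are a description and no test was made of them. The actin measure also differed between these animals, at 2.31 ± 0.09 in mutant saline and 2.08 ± 0.20 in control saline arrays (SD, n = 3 each). A fit with an actin term was among the 31 alternatives of this comparison, in which no member passed (smallest limma adjusted p = 0.49). Over them the brightest probe sets ran from -0.10 to 0.05 (Gja1), -0.14 to 0.08 (Slc1a3) and -0.13 to 0.02 (S100b). Those of the other genes stayed below 0. The part of the actin measure by itself was not tested.

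**Figure D2:**
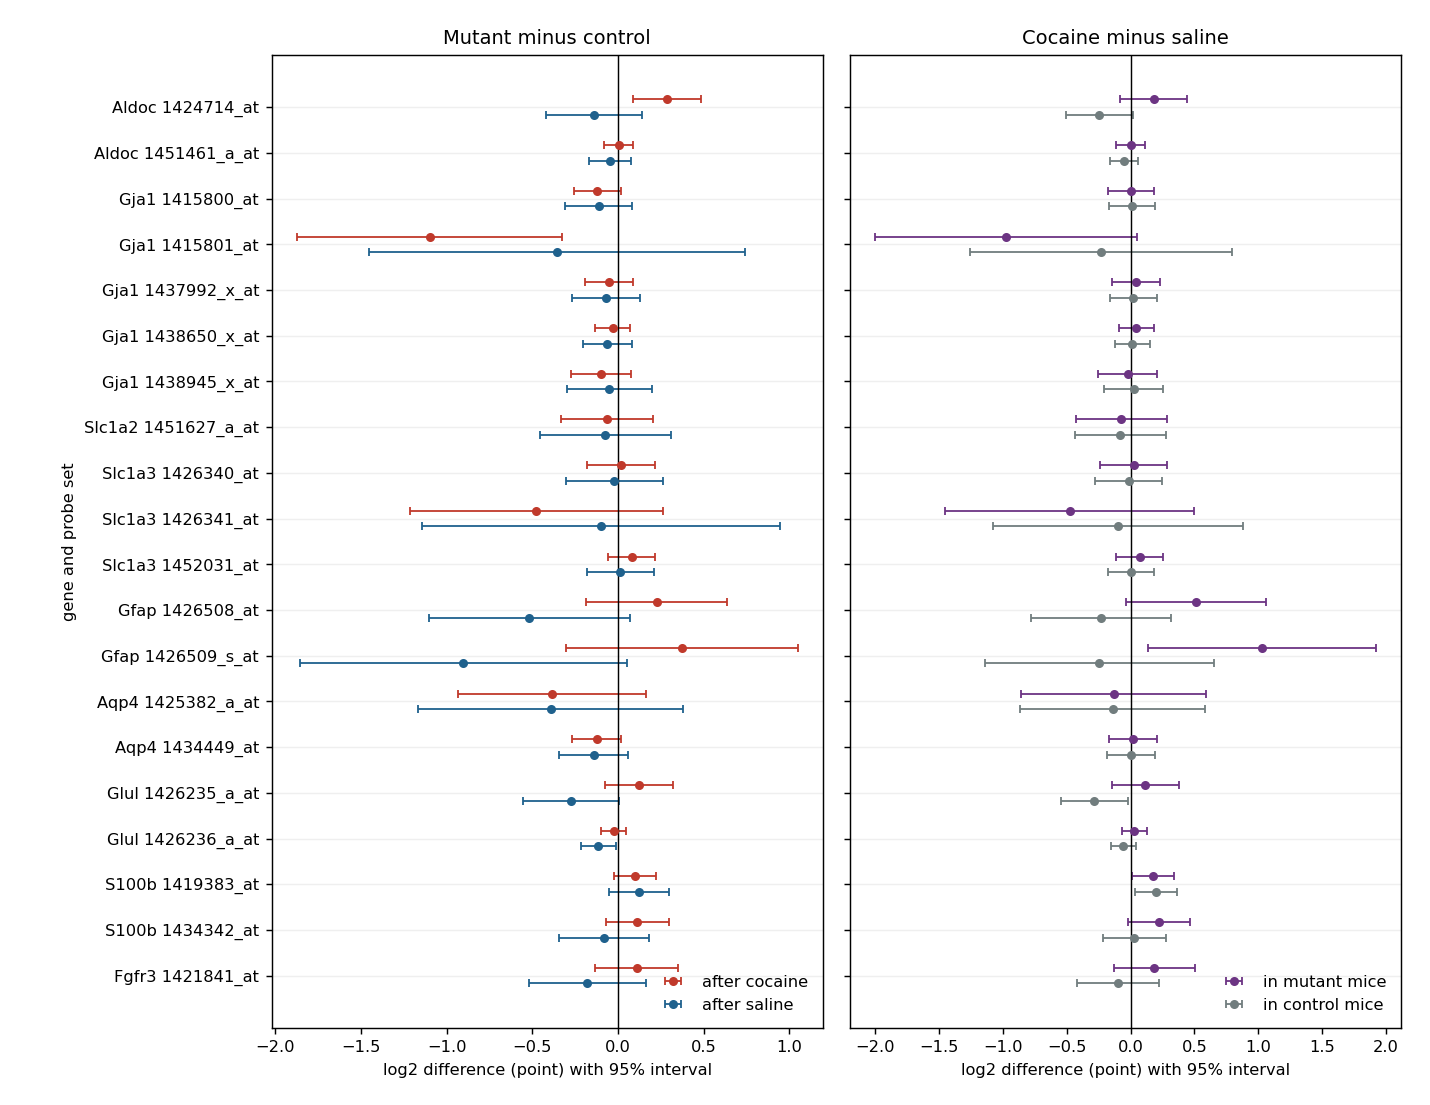
Fitted log2 differences (points) with 95% intervals (bars) for the 20 tested probe sets of the astrocyte genes; on the left mutant minus control after cocaine and after saline, on the right cocaine minus saline in mutant and in control mice. Most intervals cross 0, and the widest belong to Gja1 1415801_at, Slc1a3 1426341_at, Gfap 1426509_s_at and Aqp4 1425382_a_at.

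The plot of fitted differences sets the other genotype comparison beside the basal one. After cocaine, 0 of 20 member probe sets passed the adjusted threshold (0% of all probe sets), and 2 of 20 had an unadjusted limma p under 0.05, against 11.6% of all. One was the dimmer probe set of Aldoc, 1424714_at, with values of 9.19, 9.46 and 9.63 (lowest, median, highest) in mutant cocaine mice, against 9.00, 9.16 and 9.30 in control cocaine mice. The groups overlap, and the difference of 0.29 ± 0.09 (SE; limma, unadjusted p = 0.0073, adjusted p = 0.43) was 0.27 in the Arabic-numbered and 0.30 in the Roman-numbered animals. The brighter Aldoc probe set, 1451461_a_at, differed by 0.01 ± 0.04, with a 95% interval of -0.08 to 0.09.

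The other was Gja1 1415801_at. It had 3.52, 5.15 and 6.32 in mutant cocaine mice, against 5.26, 6.17 and 7.08 in control cocaine mice, and the lowest value is that of mutant cocaine replicate 5. The difference was -1.10 ± 0.37 (SE; limma, unadjusted p = 0.0083, adjusted p = 0.43), and -0.65 ± 0.16 without that replicate (adjusted p = 0.50). Within the Arabic-numbered animals it was -0.58, and within the Roman-numbered animals -1.62, or -0.75 without replicate 5. The other 4 tested Gja1 probe sets differed by -0.12 to -0.03, none with an unadjusted p under 0.05, so the probe sets of the connexin 43 gene did not give 1 answer.

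Gfap and Glul, lower in mutants after saline without passing the test, did not keep that sign after cocaine in 3 of their 4 probe sets. Gfap differed by 0.37 ± 0.32 (1426509_s_at) and 0.23 ± 0.20 (1426508_at), and without mutant cocaine replicate 5 by 0.05 ± 0.22 and 0.10 ± 0.18. Within the Arabic-numbered animals the same probe sets differed by 0.37 and 0.28. Within the Roman-numbered animals they differed by 0.38 and 0.17, and by -0.36 and -0.14 without that replicate. Without it, the Arabic-numbered and Roman-numbered animals therefore had opposite signs. Glul differed by 0.12 ± 0.09 (1426235_a_at) and -0.02 ± 0.03 (1426236_a_at). No member had mutant and control cocaine groups without overlap, which holds for 0.181% of all probe sets.

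Averaged over both treatments, mutant minus control again gave 0 of 20 past the adjusted threshold (0% of all) and 4 of 20 with an unadjusted limma p under 0.05, against 7.13% of all. These were Gja1 1415801_at at -0.73 ± 0.32 (-0.50 ± 0.13 without mutant cocaine replicate 5), Aqp4 1434449_at at -0.13 ± 0.06, Glul 1426236_a_at at -0.07 ± 0.03 and S100b 1419383_at at 0.11 ± 0.05. Limma's adjusted p was 0.68 for each of these 4 probe sets. Without mutant cocaine replicate 5 the list was not the same. S100b 1419383_at then had an unadjusted limma p of 0.059. Gfap 1426509_s_at went from -0.26 ± 0.28 (limma, unadjusted p = 0.35) to -0.43 ± 0.18 (unadjusted p = 0.033, adjusted p = 0.54).

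The count of probe sets called after cocaine depended on 1 array. Averaged over genotypes, 28 probe sets (0.221%) were higher after cocaine and none was lower by limma's adjusted p, 645 had an unadjusted p under 0.05, and 0 of the 20 astrocyte probe sets were among the 28. The number called over the whole array was 362 without mutant cocaine replicate 5 and 430 in the Arabic-numbered arrays alone. The nearest member was S100b 1419383_at. It had 9.24, 9.50 and 9.64 (lowest, median, highest) in mutant cocaine mice, against 9.38, 9.45 and 9.38 in the mutant saline animals, and 9.23, 9.29 and 9.62 in control cocaine mice, against 9.27, 9.34 and 9.24 in the control saline animals. Cocaine and saline animals overlap in both genotypes, and the fitted averaged difference, which rests on the Arabic-numbered animals, was 0.19 ± 0.06 (SE; limma, unadjusted p = 0.0053, adjusted p = 0.62). It was the single member with an unadjusted p under 0.05 in this comparison (1 of 20, against 5.09% of all). The brighter S100b probe set, 1434342_at, differed by 0.13 ± 0.09.

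Which arrays entered the fit changed 2 calls. Gja1 1415801_at had an averaged cocaine difference of -0.60 ± 0.37 in all arrays (limma, adjusted p = 0.86) and -0.60 ± 0.15 without mutant cocaine replicate 5 (adjusted p = 0.045), the same value with a smaller error. Slc1a3 1426341_at had -0.29 ± 0.35 in all arrays (limma, adjusted p = 0.90) and -0.29 in the Arabic-numbered arrays alone (adjusted p = 0.039). The actin measure of the Arabic-numbered cocaine arrays was 2.38 ± 0.17, against 2.20 ± 0.19 in saline arrays (SD, n = 6 each), and with the actin term in the fit without mutant cocaine replicate 5, an alternative added after the data had been seen, 0 members passed (smallest adjusted p = 0.092). In that fit Gja1 1415801_at differed by -0.63 and Slc1a3 1426341_at by -0.23 (limma, adjusted p = 0.092 and 0.20), and without the actin term on the same 17 arrays Slc1a3 1426341_at had -0.29 ± 0.08 (adjusted p = 0.062). The other tested probe sets of these genes differed by 0.00 to 0.03 (Gja1) and by 0.00 and 0.04 (Slc1a3).

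In mutant mice alone, cocaine against saline gave 0 of 20 past the adjusted threshold, against 0.0473% of all probe sets, and 2 of 20 at an unadjusted p under 0.05, against 6.95% of all. Gfap 1426509_s_at had 5.68, 6.78 and 8.11 (lowest, median, highest) in mutant cocaine mice, against 6.08, 6.29 and 5.60 in mutant saline mice. The highest value, 8.11, is that of replicate 5, and the fitted difference was 1.03 ± 0.42 (SE; limma, unadjusted p = 0.027, adjusted p = 0.66) and 0.87 ± 0.28 without it (adjusted p = 0.19). In the Arabic-numbered animals, mutant cocaine mice had 7.49, 6.84 and 6.72, above all 3 mutant saline mice, and of the Roman-numbered ones replicates 4 and 6 had 6.15 and 5.68. S100b 1419383_at differed by 0.18 ± 0.08 (limma, adjusted p = 0.66). Gja1 1415801_at differed by -0.97 ± 0.48 (limma, unadjusted p = 0.061), and by -0.75 ± 0.20 without replicate 5 (unadjusted p = 0.002, adjusted p = 0.13). Slc1a3 1426341_at differed by -0.48 ± 0.46, and by -0.25 ± 0.10 without it (limma, unadjusted p = 0.029, adjusted p = 0.32). Over all arrays, the other tested probe sets differed by -0.02 to 0.05 (Gja1) and by 0.02 and 0.07 (Slc1a3).

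In control mice, cocaine against saline likewise gave 0 of 20 past the adjusted threshold (0.11% of all) and 2 of 20 at an unadjusted p under 0.05 (2.6% of all). S100b 1419383_at differed by 0.20 ± 0.08, and Glul 1426235_a_at by -0.28 ± 0.12 (SE; limma, adjusted p = 0.9999 for both). Glul 1426235_a_at had 9.52, 9.80 and 10.01 in control cocaine mice, against 10.06, 9.94 and 10.02 in control saline mice, which overlap. Gfap differed by -0.24 ± 0.42 (1426509_s_at) and -0.23 ± 0.26 (1426508_at) in control mice, and by -0.08 ± 0.28 and -0.17 ± 0.23 without mutant cocaine replicate 5. Neither pair of cocaine and saline groups was without overlap for any member, against 4.35% of all probe sets in mutant and 2.28% in control mice.

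The genotype by cocaine interaction subtracts the control from the mutant cocaine response, and tests whether cocaine acted differently in the genotypes. It gave 0 of 20 past the adjusted threshold (0% of all probe sets). Limma's unadjusted p was under 0.05 in 4 of 20 members, against 2.68% of all. The 4 were Aldoc 1424714_at at 0.43 ± 0.16, Glul 1426235_a_at at 0.40 ± 0.16, Gfap 1426509_s_at at 1.27 ± 0.55 and Gfap 1426508_at at 0.74 ± 0.34 (SE). Their unadjusted limma p ran from 0.017 to 0.043, and the adjusted p was 0.99 for each. Without mutant cocaine replicate 5 the Gfap values were 0.95 ± 0.37 and 0.61 ± 0.30. The interaction was above 0 in 15 of 20 member probe sets, against 46% of all probe sets, and in the brightest probe set of 9 of 9 genes, with a median of 0.05 over the genes, against -0.01 over all genes. It shares its 6 saline arrays with the basal difference, so that a low mutant saline value lowers the one and raises the other.

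**Figure D3:**
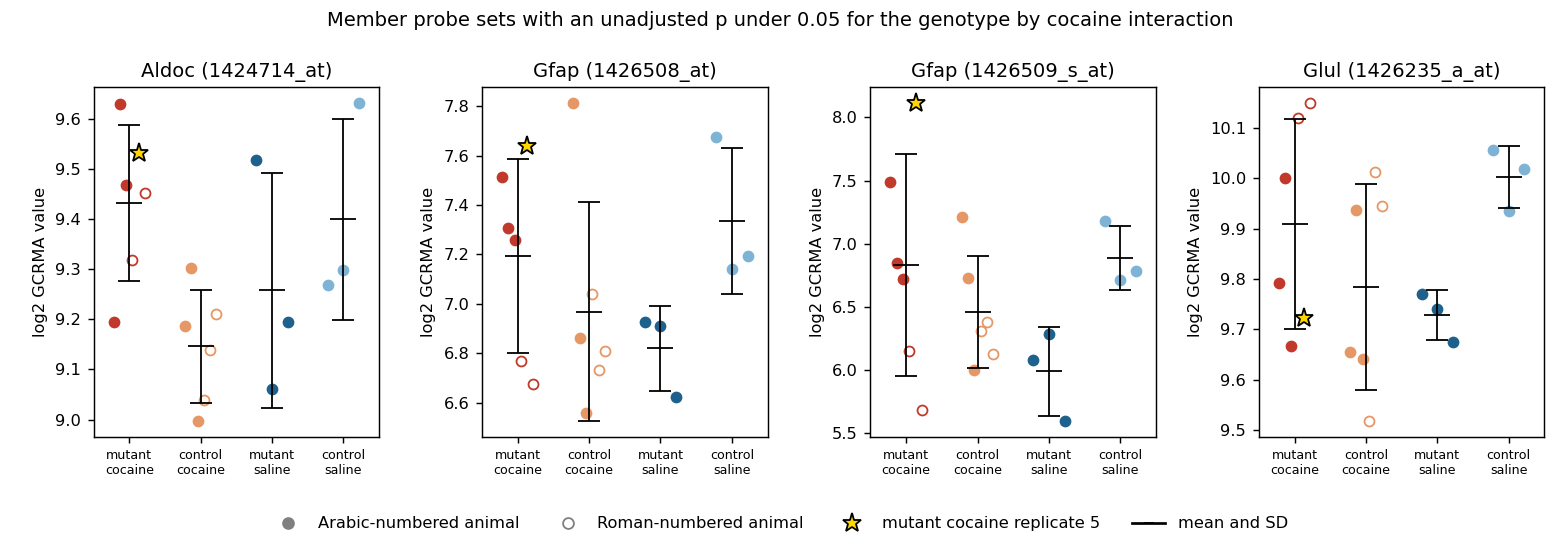
Log2 GCRMA level (vertical axis, own scale per panel) of the 4 astrocyte probe sets whose interaction had an unadjusted p under 0.05, with 1 point per animal and bars for mean and SD; groups run mutant cocaine, control cocaine, mutant saline, control saline. In the Gfap and Glul panels the mutant saline animals lie below the control saline animals, and in all 4 panels the mutant and control cocaine animals overlap.

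The panels of these 4 probe sets differ in which groups set the value. For Gfap 1426509_s_at the group means were 6.83 ± 0.88 in mutant cocaine, 6.46 ± 0.45 in control cocaine, 5.99 ± 0.35 in mutant saline and 6.89 ± 0.25 in control saline mice. For Glul 1426235_a_at they were 9.91 ± 0.21 in mutant cocaine, 9.78 ± 0.20 in control cocaine, 9.73 ± 0.05 in mutant saline and 10.00 ± 0.06 in control saline mice. In both of these the mutant saline mean was the lowest and the control saline mean the highest. For Aldoc 1424714_at they were 9.43 ± 0.16 in mutant cocaine, 9.15 ± 0.11 in control cocaine, 9.26 ± 0.23 in mutant saline and 9.40 ± 0.20 in control saline mice, with the lowest mean in control cocaine and the highest in mutant cocaine mice.

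Probe sets of the same gene did not always follow each other across animals. Residuals were formed by removing the 6 means of group and numbering series, and correlated over the 18 arrays with an exact two-sided permutation of animals within those 6 cells, adjusted over 18 pairs of probe sets. The 3 Gja1 probe sets 1437992_x_at, 1438650_x_at and 1438945_x_at had pairwise r of 0.90 to 0.94 (permutation, adjusted p of at most 0.0096), with rho of 0.92 to 0.95, and r ran from 0.85 to 0.90 without the 2 farthest arrays. The Gfap pair had r = 0.85 and rho = 0.83 (exact permutation p = 0.00058 and 0.0014, adjusted p = 0.0052), 0.81 without the 2 arrays farthest from the median, 0.86 in Arabic-numbered and 0.95 in Roman-numbered animals. In contrast, Gja1 1415801_at had r = -0.61 with 1438650_x_at (rho = -0.51, exact permutation p = 0.085 and 0.091, adjusted p = 0.17), and Slc1a3 1426341_at had r = -0.31 with 1452031_at (rho = -0.17, exact permutation p = 0.24 and 0.55). Without mutant cocaine replicate 5 these were -0.21 and 0.11.

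Mutant cocaine replicate 5 set much of this. Compared with the mean of the other 2 Roman-numbered mutant cocaine arrays, it was lower in Slc1a3 1426341_at (a log2 difference of -2.77), Gja1 1415801_at (-2.62) and Aqp4 1425382_a_at (-1.53). It was higher in both Gfap probe sets, 1426509_s_at (2.20) and 1426508_at (0.92). Other probe sets of the low genes differed less and in both directions: Slc1a3 1426340_at by -0.53 (10.88, against 11.13 to 11.60 in the other 17 arrays), Slc1a3 1452031_at by 0.14, Gja1 1437992_x_at by 0.25 and Aqp4 1434449_at by 0.08. Within this array the probe sets of these genes therefore gave different answers.

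**Figure D4:**
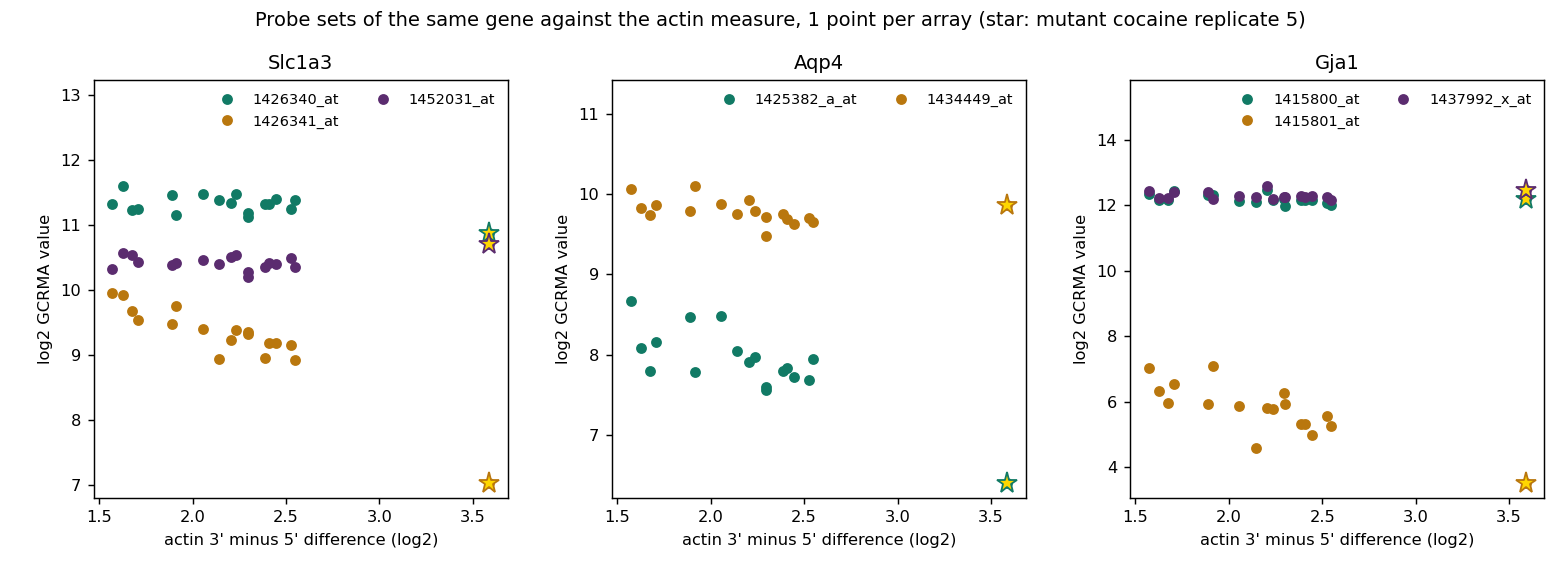
Log2 GCRMA level of probe sets of Slc1a3, Aqp4 and Gja1 (vertical axis, own scale per panel) against the log2 3' minus 5' difference of actin (horizontal axis), with 1 point per array and colours for probe sets; the star is mutant cocaine replicate 5, at 3.59. Slc1a3 1426341_at, Aqp4 1425382_a_at and Gja1 1415801_at are lowest in that array (7.03, 6.40 and 3.52), Slc1a3 1426340_at is also lowest there (10.88), and the other plotted probe sets of the 3 genes lie less far from their values in other arrays.

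The plot against the actin measure shows 1 probe set with a relation that passed its test. Aqp4 1425382_a_at had r = -0.88 and rho = -0.84 between its residuals and those of the actin measure (exact permutation p = 0.0017 and 0.0024, adjusted p = 0.034 over 20 probe sets). Without the 2 arrays farthest from the median of the actin residuals r was -0.71, in Arabic-numbered arrays -0.68, in Roman-numbered arrays -0.94 and without mutant cocaine replicate 5 -0.75 (permutation, adjusted p = 0.17). Slc1a3 1426341_at had r = -0.95 and rho = -0.63 (exact permutation p = 0.040 and 0.046, adjusted p = 0.27), with -0.77 without the 2 farthest arrays, -0.38 in Arabic-numbered and -0.99 in Roman-numbered arrays, and -0.36 without mutant cocaine replicate 5. Slc1a3 1426340_at, the brightest probe set of the gene, had r = -0.77 and rho = -0.62 (exact permutation p = 0.019 and 0.032, adjusted p = 0.19), with -0.37 without the 2 farthest arrays, -0.52 in Arabic-numbered and -0.87 in Roman-numbered arrays, and -0.52 without mutant cocaine replicate 5. Gja1 1415801_at had r = -0.85 and rho = -0.36 (exact permutation p = 0.20 and 0.28), and 0.08 without that array, so its relation rests on it. The other tested Gja1 probe sets had r of -0.15 to 0.42 over all arrays. Without that array they had -0.71 to -0.51 (permutation, adjusted p of 0.26 to 0.35). An r of -0.5 or below was found for 30.0% of the member probe sets and 20.8% of all probe sets, and without mutant cocaine replicate 5 for 30.0% of members and 7.26% of all. The members were not the same in both. Without that array they were Aqp4 1425382_a_at, Slc1a3 1426340_at and the tested Gja1 probe sets other than 1415801_at.

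Covariation across animals was described with the brightest probe set of each gene, over 36 pairs of genes. The median residual r was 0.13 among the members and 0.04 over all 28747153 pairs of genes. It was 0.25 against 0.02 without mutant cocaine replicate 5, 0.38 against 0.03 in the 12 Arabic-numbered arrays and 0.03 against 0.06 in the 6 Roman-numbered arrays. These values carry no test, and the genes of a pair share arrays and RNA samples. No pair passed the exact permutation test after adjustment over the 36.

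Over all 18 arrays, the highest-ranked pair by p was Glul with Fgfr3. It had r = 0.70 and rho = 0.73 (exact permutation p = 0.0049 and 0.0084, adjusted p = 0.18 and 0.30), 0.61 without the 2 arrays farthest from the median, 0.82 in Arabic-numbered and 0.51 in Roman-numbered animals. Gja1 with Gfap had r = 0.73 and rho = 0.69 (exact permutation p = 0.059 and 0.041, adjusted p = 0.54 and 0.64), with 0.40 without the 2 farthest arrays, 0.88 in Arabic-numbered and 0.48 in Roman-numbered animals. Aldoc ran against both, with r = -0.52 and rho = -0.43 with Gja1 (exact permutation p = 0.048 and 0.093) and r = -0.50 and rho = -0.47 with Gfap (exact permutation p = 0.078 and 0.085), each with an adjusted p of 0.54 for r. Without the 2 farthest arrays these were -0.44 and -0.35, in Arabic-numbered animals -0.64 and -0.75, and in Roman-numbered animals -0.30 and 0.56, so that the second sign did not hold in both. Without mutant cocaine replicate 5, the pair of lowest p was Slc1a3 with S100b. It then had r = 0.65 (exact permutation p = 0.0044, adjusted p = 0.16), against -0.05 over all arrays. Glul with Fgfr3 then had 0.75, Gja1 with Gfap 0.64, and Aldoc -0.63 with Gja1 and -0.67 with Gfap. In all, 24 of the 36 values of r were above 0, and 25 of 36 without mutant cocaine replicate 5.

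**Figure D5:**
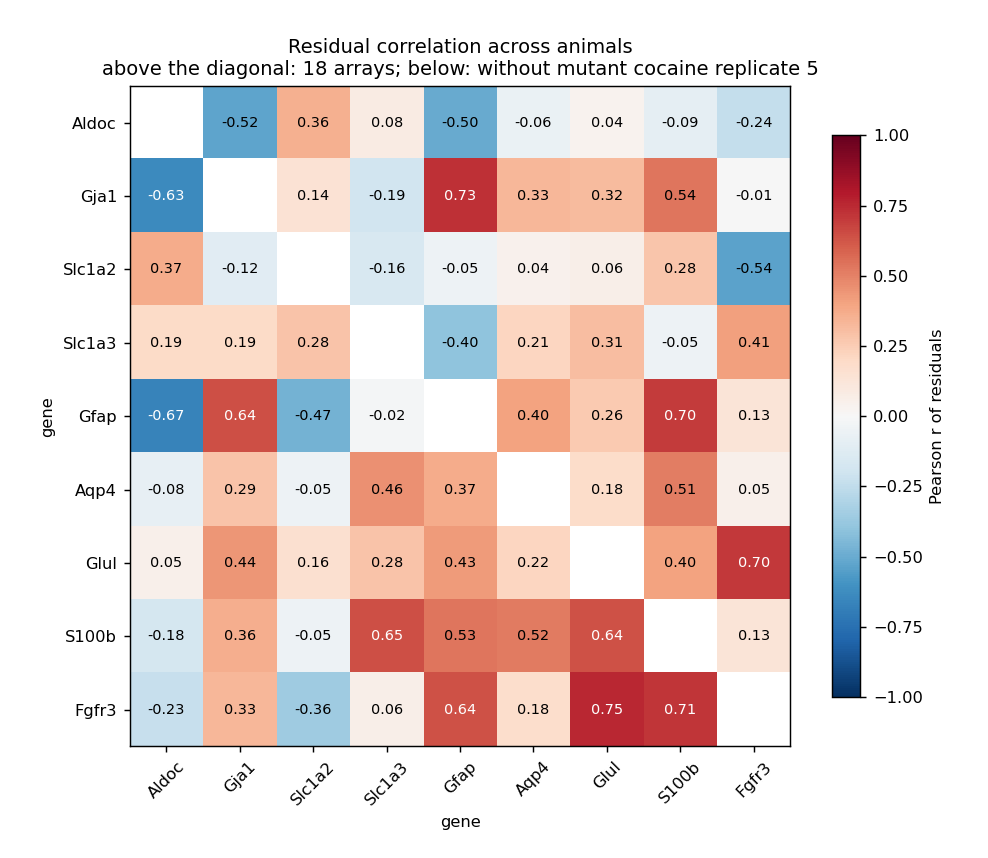
Pearson r between residuals of the 9 astrocyte genes (brightest probe set), over 18 arrays above the diagonal and over 17 arrays, without mutant cocaine replicate 5, below it; red is positive and blue negative. S100b with Fgfr3 reads 0.13 above the diagonal and 0.71 below it, and Aldoc is negative with Gja1 and Gfap on both sides.

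In the map of correlations, Aldoc (1451461_a_at) was negative with Gja1 and Gfap but had r = 0.36 with Slc1a2 (exact permutation p = 0.12, adjusted p = 0.54). Its residuals had r = 0.26 with those of the other Aldoc probe set, 1424714_at (exact permutation p = 0.44, adjusted p = 0.52). The correlation of each gene's residuals with the mean of the 9 standardised residuals, of which it is itself a part, was 0.80 for S100b, 0.77 for Glul, 0.63 for Aqp4, 0.55 for Gja1, 0.53 for Gfap, 0.39 for Fgfr3, 0.29 for Slc1a3, 0.27 for Slc1a2 and 0.01 for Aldoc. Without mutant cocaine replicate 5, Slc1a3 and Fgfr3 had 0.65 each and Aldoc -0.04. Of genes that are no members, the 10 most like this mean over 18 arrays were Tmem33 (r = 0.89), Qk (0.88), Ccdc34, Rpgr, Nnt, Zfp503, Fam13c, Lgalsl, Ywhag and Pcmtd2 (0.82 for the tenth). Tmem33 and Qk had 0.91 and 0.89 without mutant cocaine replicate 5. These 10 were the highest of all measured genes and no test attaches to them.

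Other genes of astrocytes were described from lists written from textbook knowledge. Of 41 other astrocyte-enriched genes measured, none passed the adjusted threshold in any of the 7 comparisons. Their basal difference was below 0 in 22 and above 0 in 19, with a median of -0.02, against 0.03 over all genes, and 45% of all probe sets were below 0. An unadjusted limma p under 0.05 was found for 3 of the 41, against 2.76% of all probe sets: Bcan, a matrix proteoglycan, at 0.26 ± 0.08, Scg3, a secretory granule protein, at 0.18 ± 0.07, and Gjb6, which encodes the second astrocytic connexin, connexin 30, at -0.25 ± 0.11. The 4 brightest, Clu, Cst3, Cpe and Sparcl1, had basal differences of -0.06 ± 0.05, -0.02 ± 0.06, -0.05 ± 0.07 and -0.05 ± 0.08. Gjb6 averaged 8.69 ± 0.15 in mutant cocaine, 8.56 ± 0.13 in control cocaine, 8.46 ± 0.13 in mutant saline and 8.71 ± 0.15 in control saline mice, with an interaction of 0.38 ± 0.14 (limma, unadjusted p = 0.014, adjusted p = 0.99). The interaction was above 0 in 26 of the 41 genes, with a median of 0.08.

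Of 18 genes known from reactive astrocytes and present on the array, 6 were measured, and none passed the adjusted threshold in any comparison. Vim, an intermediate filament partner of Gfap, averaged 9.85 ± 0.12 in mutant cocaine, 9.68 ± 0.12 in control cocaine, 9.61 ± 0.14 in mutant saline and 9.61 ± 0.13 in control saline mice. Cebpd, a transcription factor gene induced by inflammation and by glucocorticoids, averaged 5.44 ± 0.40 and 5.34 ± 0.63 in mutant and control cocaine mice, against 4.57 ± 0.27 and 4.73 ± 0.09 in mutant and control saline mice, an averaged cocaine difference of 0.91 ± 0.24 (limma, unadjusted p = 0.0015, adjusted p = 0.27). Their basal differences were below 0 in 5 of 6 genes, with a median of -0.04.

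Lists around single members likewise had no gene past the adjusted threshold in any comparison. The glutamate uptake and glutamate-glutamine list had 11 measured genes and a basal median of 0.04, with 7 above and 4 below 0, and the neuronal glutamate transporter gene Slc1a1 was at 0.20 ± 0.09, against -0.02 ± 0.13 for Slc1a3 1426340_at. The gap junction list (5 genes) had a basal median of -0.06 and the water and ion handling list (9 genes) of 0.06. The 14 energy metabolism genes had an averaged cocaine difference above 0 in 13, with a median of 0.10, against 0.01 over all genes. Among these the glucose transporter gene Slc2a1 was at 0.27 ± 0.09 (limma, unadjusted p = 0.010, adjusted p = 0.82), and Aldoc 1451461_a_at at -0.02 ± 0.04. All 7 measured S100 genes, S100b among them, were above 0 in the averaged cocaine contrast, with a median of 0.13. The 11 genes of FGF receptors and partners and the 7 intermediate filament genes had medians of 0.00 and 0.08 there.

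Markers of other cells in the tissue were set beside the astrocyte genes. The mean log2 level of the 9 astrocyte genes ran from 10.38 to 10.53 in mutant cocaine, 10.30 to 10.60 in control cocaine, 10.28 to 10.43 in mutant saline and 10.44 to 10.59 in control saline arrays. The saline groups did not overlap, but their nearest arrays stood at 10.434 (mutant) and 10.439 (control). Of the brightest probe sets in this mean, only that of Gfap had saline groups without overlap. How often the means of other sets of genes separate in this way was not counted. For the 41 other astrocyte-enriched genes the ranges were 10.21 to 10.30 in mutant cocaine, 10.15 to 10.25 in control cocaine, 10.19 to 10.27 in mutant saline and 10.20 to 10.27 in control saline arrays, and all overlapped. For 8 oligodendrocyte genes they were 11.58 to 12.09 in mutant cocaine, 11.46 to 11.79 in control cocaine, 11.66 to 11.72 in mutant saline and 11.56 to 11.86 in control saline arrays, and for 9 microglial genes 9.15 to 9.30 in mutant cocaine, 9.22 to 9.30 in control cocaine, 9.00 to 9.33 in mutant saline and 9.14 to 9.34 in control saline arrays. For 5 genes of oligodendrocyte precursors the saline groups did not overlap in the other direction, at 8.04 to 8.11 in mutant saline and 7.93 to 8.00 in control saline arrays, and 4 of the 5 had a basal difference above 0 (median 0.09). For 5 endothelial genes the mean level was 7.88 to 8.35 in mutant saline and 7.87 to 7.91 in control saline arrays, and the basal difference was above 0 in 5 of 5, with a median of 0.25, against 0.03 over all genes. None of the 8 oligodendrocyte, 5 precursor, 9 microglial, 5 endothelial and 8 spiny neuron genes passed the adjusted threshold in a comparison. The part of tissue makeup in the basal astrocyte values was not tested.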

How the data were processed

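Striatal RNA of 18 mice, 1 array each, was analysed. The deposited table held log2 expression values of 22690 probe sets, computed by the authors with GCRMA under R 2.4.1, per the submitters' processing notes, with settings that the sources used here do not state. GCRMA corrects background by probe sequence and equalises arrays, which compresses differences of dim probe sets and removes any change of total signal. Array medians lay between 4.98 and 5.19, and no 2 columns were identical. The number of arrays limits the precision.

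Groups came from the sample titles, which call the animals biological replicates. The tests therefore set differences against the spread between animals, pooled over the 4 groups. The 64 control probe sets were left out, as were probe sets that exceeded a log2 value of 4 on fewer than 3 arrays. A linear model per probe set (4 groups and the Arabic or Roman numbering series) was fitted (limma 3.58.1, R 4.3.3) with a variance trend, two-sided moderated tests and Benjamini-Hochberg adjustment over 12674 probe sets, with a threshold of 0.05. It had 13 residual and 3.13 prior degrees of freedom and was tested on simulated data. There were 7 contrasts. Since all saline animals are Arabic-numbered, cocaine differences within the series rest on those numbers. The brightest probe set stood for a gene.

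Residual correlations used 46656 relabellings of animals within the 6 cells of group and numbering, with a smallest possible p of 2.14e-05, 1296 and 36 for the Arabic and Roman animals alone. Replicate numbers were not taken to pair animals: over 21 pairs of same-numbered arrays, the correlation of deviations ran from -0.23 to 0.31 and exceeded 0.1 in 7. The animal numbers in the titles fall into consecutive runs that hold an animal of each group, or of each cocaine group among Roman numbers. Over the 21 pairs within these runs the correlation had a median of 0.09, against 0.04 for replicate numbers, and exceeded 0.1 in 9. The runs entered as a block in an alternative fit only. Named genes were all members, Camk4, Fos, up to 4 called or brightest genes of a list and the 10 genes most like the members; genes with an unadjusted p under 0.05 and Vim, named from the lists, were chosen after their values were seen. The members and lists were chosen with earlier results of these data known. Alternatives changed the filter, the series term, blocks, arrays, weights, an actin term, moderation and normalization. Only the processed table was used here, so background correction was not varied. Tables and figures were made with Python 3.11.15, numpy 2.4.6, pandas 2.3.3 and matplotlib 3.10.9.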

Additional observations from a re-analysis of the deposited data

Results flagged for a closer look

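In groups of 6 arrays, an array was taken as far from the others where its gap to the nearest one exceeded 0.625 of the group's range. Of 40 such groups of member values (20 probe sets in each cocaine group), 6 had an array this far out, where chance gives about 5% of groups. Mutant cocaine replicate 5 was that array in 5 of the 6. It was low in Slc1a3 1426341_at, at 7.03, against 8.93 to 9.92 in the other 5 arrays, and in Aqp4 1425382_a_at, at 6.40, against 7.72 to 8.08. It was high in the 3 Gja1 probe sets that follow each other: 12.47 in 1437992_x_at, against 12.22 to 12.29, 11.53 in 1438650_x_at, against 11.29 to 11.36, and 11.58 in 1438945_x_at, against 11.19 to 11.33. The actin 3' minus 5' difference of this array was 3.59, the highest of all 18. The remaining one was mutant cocaine replicate 3 in Gja1 1415800_at, at 12.11, against 12.16 to 12.18. What part RNA length has in these values was not tested.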

How the results depend on the processing

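The count of astrocyte probe sets past the adjusted threshold was 0 in 6 of the 7 contrasts under all 30 or 31 alternatives of each, with a smallest limma adjusted p between 0.13 (cocaine in mutant mice) and 0.73 (interaction). In the averaged cocaine contrast it was 1 with the Arabic-numbered arrays alone (Slc1a3 1426341_at, adjusted p = 0.039) and 0 to 1 leaving out 1 array, with 1 without mutant cocaine replicate 5 (Gja1 1415801_at, adjusted p = 0.045). With the replicate number as a block the count was 0 in all 7 contrasts and the median residual correlation 0.15. Replicate numbers were not taken to pair the animals. That correlation was 0.38 in the Arabic-numbered arrays and ran from 0.03 to 0.25 leaving out 1 array. Of 4280 single values under alternatives, 2 came to pass the threshold and the others stayed on their side of it. For values with an unadjusted p of 0.05 or more, 15 to 68 of the 480 to 589 combinations of value and alternative in a contrast had the other sign, which was not counted as a reversal. Over the whole array, calls of the averaged cocaine contrast numbered 28, and 16 to 430 under alternatives that leave out no single array and 20 to 362 leaving out 1; the cause was not tested. Calls numbered 6, and 0 to 26, in mutant mice and 14, and 0 to 43, in control mice. The basal and interaction values rest on 3 saline arrays per genotype, and their errors also on the shared spread, to which mutant cocaine replicate 5 adds.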
